A study of Mus musculus with 12 samples.

Results

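Thymocytes that had lost the Mediator subunit MED23 were compared with control thymocytes without T-cell receptor stimulation, on the 6 mock arrays among the 12 arrays of the series. Each array held the RNA of total thymocytes of 1 female mouse of 6 to 7 weeks on a C57Bl/6 x 129Sv (F1) background. The MED23 null group was 2 *Med23flox/flox;Lck-Cre* mice. The 4 controls were 2 *Lck-Cre* mice, which carry the transgene and intact *Med23*, and 2 *Med23flox/flox* mice, which carry the floxed allele and no Cre. Cells of every mouse rested 4 h, and a mock incubation of 3 h without antibody followed. The other 6 arrays are of the same 6 mice after 3 h on plate-bound αCD3, an antibody against the T-cell receptor complex, and are used only beside the mock values. *Lck-Cre* is active in the T lineage, so other cells of the thymus keep *Med23*, and no deletion efficiency for these mice was used here. As thymocytes were not sorted, every signal is an average over all cells of the suspension.

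Mediator is a large complex that links transcription factors bound to DNA with RNA polymerase II, and MED23 is a subunit of its tail. MED23 is known as a contact for factors that act downstream of MAPK/ERK signalling, such as the ETS factor ELK1. Most thymocytes are double positive (DP) cells that express CD4 and CD8 and rearrange their receptor genes. The few that are selected become single positive cells, which gain the transcription factor KLF2, the sphingosine phosphate receptor S1P1 and the chemokine receptor CCR7, and leave the thymus.

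The measure is the MAS5 signal, the summary of 1 probe set on the Affymetrix mouse genome array of this series. Of 12488 probe sets, 66 array controls were left out, and 8579 had a mean signal of at least 100 in the MED23 null or in the control group. Of these, 7681 reached 100 in both groups, 389 in control only and 509 in null only. The last 2 classes entered the test only through the group in which they were high, so a difference was built into them, and they are told apart below. Differences are given as null minus control on the log2(signal + 50) scale, which understates the fold change of dim probe sets. The mock arrays were alike. Their lower quartiles were 50 to 58.2, and the mean correlation of each with the other mock arrays was 0.954 to 0.959. Signs of RNA quality were alike too, as actin probe sets at the 3' end exceeded those at the 5' end by ratios of 1.44 and 1.63 in null and 1.35 to 1.6 in control mice. The αCD3 array of *Med23flox/flox* replicate 1 stood apart (lower quartile 85.2, against 50.2 to 58.2 on the other αCD3 arrays), and counts on the αCD3 arrays are given below with and without it. The actin ratio separated the groups on these arrays, at 1.9 and 1.61 in null and 1.35 to 1.41 in control mice.

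The targeted gene was lower but not absent. The *Med23* probe set had signals of 424 and 369 in the *Lck-Cre* mice, 288 and 381 in the *Med23flox/flox* mice, and 268 and 207 in the null mice. Both null values lay below all 4 control values, by a log2 difference of -0.53 (SE 0.19, adjusted p = 0.55). The deletion removes internal exons, and the sources used here do not say where in the transcript these probes lie, so the signal does not measure how complete the deletion was. Of 12 measured Mediator subunit genes, *Med23* was the only 1 whose null arrays both lay below all controls, and *Ccnc*, which encodes cyclin C, was the only 1 with both above (log2 0.16), counts near the 8.72% and 9.81% of all tested probe sets given below. The median of the 12 genes was -0.14, against 0.02 over all tested probe sets. *Med11* stood at -0.39 and *Med22* at 0.19.

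No probe set passed the test of null against the 4 controls at an adjusted p of 0.05 (limma), and the smallest adjusted p was 0.0622. At an unadjusted p under 0.05, 329 probe sets were lower (3.83% of those tested) and 377 were higher (4.39%). For 748 probe sets (8.72%) the higher null signal was under the lowest of the 4 controls, and for 842 (9.81%) the lower null signal exceeded the highest control. Among the 7681 probe sets with a mean of at least 100 in both groups these counts were 647 (8.42%) and 681 (8.87%). With 2 arrays against 4, an exact two-sided permutation test of a single probe set cannot give a p below 0.0667, and with 2 against 2 none below 0.333. Genes are therefore described below by their signals and by whether the groups overlapped, and none of the differences passed the test after adjustment.

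Among probe sets with a mean of at least 100 in both groups, the 12 that separated best on the lower side were of mixed function and included *Cd52*, *Slfn1*, *Crip1* and *Ccr7*. *Cd52*, which encodes a short glycoprotein anchored in the lymphocyte membrane, had signals of 4077 and 3918 in the *Lck-Cre* mice, 3947 and 3314 in the *Med23flox/flox* mice, and 1502 and 1673 in the null mice. All controls exceeded the higher null value, and the log2 difference was -1.24 (SE 0.15, adjusted p = 0.125). It was alike against either control genotype, at -1.31 against *Lck-Cre* and -1.17 against *Med23flox/flox*. *Slfn1*, a Schlafen gene of quiescent T cells, had signals of 1232 and 943 in *Lck-Cre*, 828 and 1067 in *Med23flox/flox* and 425 and 436 in null mice. Here too the groups did not overlap (log2 -1.14, SE 0.18, adjusted p = 0.173). *Crip1*, a small LIM domain protein, had signals of 3237 and 3501, then 2267 and 2880 in the same order of controls, and 1423 and 1334 in null mice (log2 -1.06, SE 0.20, adjusted p = 0.21). Its difference was -1.26 against *Lck-Cre* and -0.87 against *Med23flox/flox*. The homing receptor *Ccr7* had signals of 1273, 1011, 642 and 998 in the controls and 407 and 335 in null mice (log2 -1.26, SE 0.26, adjusted p = 0.272), at -1.50 against *Lck-Cre* and -1.02 against *Med23flox/flox*.

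The other 8 of these 12 genes are not known for 1 shared function. *Rasa3*, a GTPase-activating protein of RAS and RAP, had signals of 1325 to 1664 in the controls and 915 and 802 in null mice (log2 -0.77). *Cnn2*, an actin-binding calponin, stood at 563 to 659 against 331 and 358, with a log2 difference of -0.74 against each control genotype. For *Nsmce1*, a subunit of the SMC5/6 complex, controls lay at 1180 to 1273 and null mice at 786 and 775 (log2 -0.62). *Mrps12*, a protein of the mitochondrial ribosome, was measured at 362 to 392 against 210 and 214 (log2 -0.69). *Pfkp*, a phosphofructokinase of glycolysis, *Tbc1d14* and *Abcb8*, a mitochondrial transporter, had log2 differences of -0.72, -0.71 and -0.97, and a second probe set of *Pfkp* was at -0.23 with overlapping groups. The largest difference among these 12 genes was that of *Cystm1* (log2 -1.43, SE 0.20), with 322 to 460 in the controls and 136 and 94.0 in null mice. The differences of the 12 genes ran from -1.43 to -0.62, with adjusted p from 0.125 to 0.272. All 12 were lower against each control genotype alone.

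**Figure D1:**
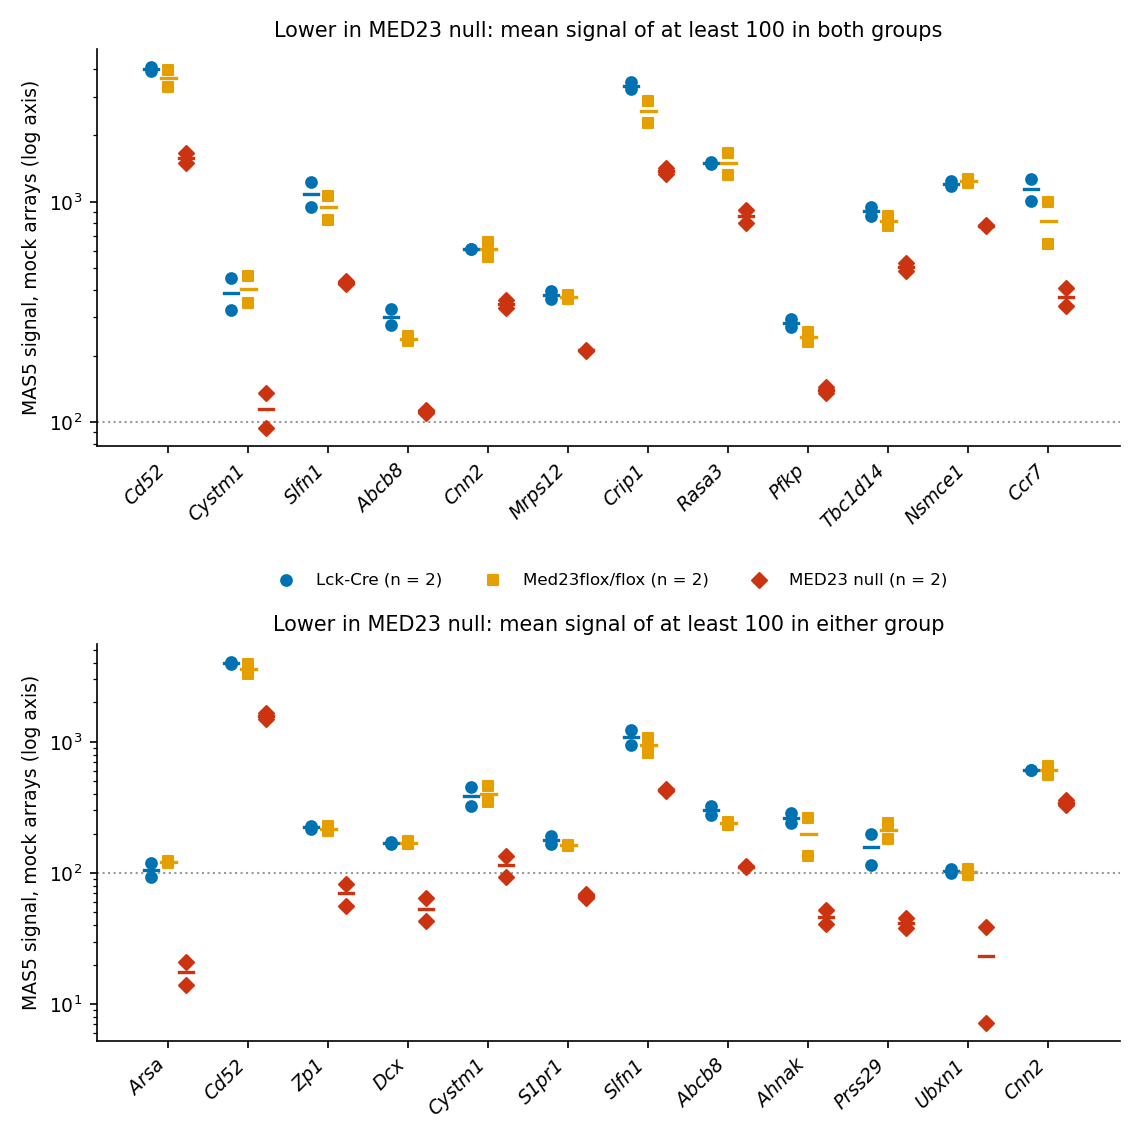
MAS5 signal on a logarithmic axis for the genes lower in MED23 null thymocytes, with 1 point per mouse and a bar at the mean of each genotype; the dotted line marks a signal of 100. The upper panel holds 12 genes with a mean of at least 100 in both groups, in which *Cd52* is at 3314 to 4077 in control and at 1502 and 1673 in null mice, and the lower panel the 12 genes named from all tested probe sets, of which 7 have a null mean below 100.

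The stretches before the transcription start of *Klf2*, *Crip1*, *Slfn1* and *Gzma* are shown since these genes differ in 2 motifs known for KLF and MEF2 factors. Of these genes, *Klf2* differed by -2.24 against *Lck-Cre* but by only -0.23 against *Med23flox/flox*, as described below. Each stretch is the 250 bases upstream of the start in RefSeq on GRCm38.p6, read 5' to 3' on the strand of the gene. Positions are chr8:72318812-72319061 (plus strand) for *Klf2*, chr12:113151762-113152011 (plus) for *Crip1*, chr11:83116570-83116819 (plus) for *Slfn1* and chr13:113100982-113101231 (minus) for *Gzma*. Capitals mark matches on either strand to CACCC, the core of KLF sites, and to the MEF2 consensus, here CTA and TAG with any 4 bases between them; no match to the first overlaps a match to the second.
Klf2: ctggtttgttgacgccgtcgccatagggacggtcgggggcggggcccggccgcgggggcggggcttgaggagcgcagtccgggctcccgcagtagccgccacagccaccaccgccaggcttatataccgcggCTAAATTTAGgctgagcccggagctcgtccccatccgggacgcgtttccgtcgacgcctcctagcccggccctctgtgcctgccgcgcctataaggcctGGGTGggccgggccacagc
Crip1: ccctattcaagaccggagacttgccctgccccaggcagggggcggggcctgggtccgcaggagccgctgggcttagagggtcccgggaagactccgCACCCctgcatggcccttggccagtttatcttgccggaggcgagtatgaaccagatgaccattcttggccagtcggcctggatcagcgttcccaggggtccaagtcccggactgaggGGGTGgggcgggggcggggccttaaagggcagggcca
Slfn1: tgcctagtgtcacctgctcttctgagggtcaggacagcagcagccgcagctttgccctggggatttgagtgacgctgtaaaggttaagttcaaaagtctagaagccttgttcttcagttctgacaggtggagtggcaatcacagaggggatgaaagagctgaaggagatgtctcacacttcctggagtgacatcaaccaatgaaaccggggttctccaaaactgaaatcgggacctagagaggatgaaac
Gzma: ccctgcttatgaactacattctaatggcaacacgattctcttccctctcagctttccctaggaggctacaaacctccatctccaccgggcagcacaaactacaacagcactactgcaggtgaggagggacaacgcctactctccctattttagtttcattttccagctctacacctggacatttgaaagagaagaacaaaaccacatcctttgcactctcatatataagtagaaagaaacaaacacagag
The *Klf2* window held the MEF2 consensus 1 time and CACCC 1 time, the *Crip1* window held CACCC 2 times, and those of *Slfn1* and *Gzma* held neither. Over all 32851 windows of this length, 52% held CACCC and 3.2% the MEF2 consensus. Windows were found for 19 of 27 genes looked up, namely the 24 with signal in both groups named here, *S1pr1*, *Klf2* and *Gimap4*. Of these 19 genes, 12 had CACCC in at least 1 window, some having several starts, and *Klf2* alone had the MEF2 consensus. *Cd52*, *Ccr7* and *S1pr1* were not among them. A match is a run of letters and not a measured site.

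*Klf2* itself did not give the same answer against the 2 control genotypes. Its signals were 415 and 343 in the *Lck-Cre* mice, 47.7 and 64.4 in the *Med23flox/flox* mice, and 36.8 and 44.2 in the null mice. The groups did not overlap, but the *Med23flox/flox* values lay much closer to the null values than to those of the *Lck-Cre* mice. The log2 difference was -2.24 against *Lck-Cre* (SE 0.19, adjusted p = 0.206) and -0.23 against *Med23flox/flox* (SE 0.19, adjusted p = 0.791). Against all controls it was -1.23 (SE 0.68, adjusted p = 0.686). Between the control genotypes *Klf2* differed by 2.02 (*Lck-Cre* minus *Med23flox/flox*, SE 0.19), at an adjusted p of 0.324, the smallest of that comparison. With a fit over all 12 arrays and the mouse as a random block, *Klf2* passed the test against *Lck-Cre* (log2 -2.24, adjusted p = 0.00358). On the αCD3 arrays, *Klf2* signals were 38.3 and 34.2 in *Lck-Cre*, 83.1 and 88.1 in *Med23flox/flox* and 43.5 and 28.9 in null mice. The high level was thus seen on the *Lck-Cre* mock arrays alone. The αCD3 arrays differ from these by the stimulus as well, and the reason for the difference was not tested.

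Genes reported to depend on KLF2, and genes of egress and homing, were counted as a list. Of 10 measured, 5 had both null arrays below all controls (*Ccr7*, *Cd52*, *Klf2*, *S1pr1* and *Itgb7*), 1 had both above (*Klf3*), and the median log2 difference was -0.30, against 0.02 over all tested probe sets. Of all tested probe sets, 8.72% lay below all controls and 9.81% above. *Klf2* passed the filter through the controls alone. *S1pr1*, the receptor by which mature thymocytes leave along a sphingosine phosphate gradient, had signals of 191, 166, 161 and 165 in the controls and 69.7 and 65.0 in null mice (log2 -0.91, SE 0.14, adjusted p = 0.16). It passed the filter through the controls alone, and its other probe set lay below the filter. *Itgb7*, the integrin chain of gut homing, stood at 1113 to 1505 in control and 928 and 895 in null mice (log2 -0.49), while a dim probe set of it went the other way, with 24.1 to 121 in control and 171 and 128 in null mice (log2 0.98). That dim probe set passed the filter through the null group alone. *Klf3*, a repressor of the same family, was measured at 2282, 2258, 1484 and 1641 in the controls and at 3093 and 3023 in null mice (log2 0.69). Against *Lck-Cre* the median of the list was -0.41 and against *Med23flox/flox* -0.12.

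Markers of mature single positive thymocytes lay lower as well. Of 17 measured, 8 had both null arrays below all 4 controls and none had both above, where 8.72% and 9.81% of all tested probe sets did, and the median was -0.36. The 8 were *Ccr7*, *Klf2*, *Slfn1*, *Gimap4*, *Cd5*, *S1pr1*, *Cd6* and *Itgb7*, of which 4 are also in the list of KLF2 and homing genes. Among them, *Klf2* and *S1pr1* passed the filter through the controls alone. *Gimap4*, a GTPase of lymphocyte survival, had signals of 3718, 3149, 2096 and 3254 in the controls and 1350 and 1654 in null mice (log2 -0.98, SE 0.25, adjusted p = 0.343). *Cd5*, which dampens T-cell receptor signals, stood at 606, 600 (*Lck-Cre*), 546 and 861 (*Med23flox/flox*) against 272 and 371 (log2 -0.91). *Cd6*, its relative, had a log2 difference of -0.62, with null values of 783 and 874 under a lowest control value of 1094. *Il7r*, the receptor of the survival cytokine IL-7, did not separate the groups (log2 -0.36, with 701 and 761 against 649 to 1198). Class I genes of the list were near 0 or above it. The list median was -0.57 against *Lck-Cre*, with 16 of 17 genes below 0, and -0.19 against *Med23flox/flox*, with 13 of 17 below 0. In total thymocytes, fewer mature cells and less RNA of these genes per cell cannot be told apart.

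Some DP markers and genes of receptor rearrangement lay below all controls. *Cd8b1*, the CD8 beta chain, had signals of 22065 to 23326 in control and 15426 and 18704 in null mice (log2 -0.43). *Rag1*, *Rag2*, the DNA end-joining kinase *Prkdc* and *Dntt*, the terminal transferase, were each below all controls in both null mice, at log2 -0.36, -0.45, -0.68 and -0.35. They were 4 of the 7 measured genes of V(D)J recombination when each is taken by its brightest probe set, and the list median was -0.35. *Dntt* had further probe sets at -1.03 and -0.21. The sign was not the same for *Rag1*, whose far dimmer second probe set lay above all controls (log2 0.69, with 235 to 695 in control and 730 and 698 in null mice). Of 12 DP markers 5 lay below all controls, *Satb1*, a chromatin organizer of thymocytes, among them (log2 -0.48), and *Cd4* lay above (log2 0.29, with 5374 and 4964 against 3959 to 4513). The median of the DP markers was -0.14, and of all tested probe sets 8.72% lay below all controls and 9.81% above. The summed signal of the 12 markers was 130690 to 136762 in control and 107387 and 113591 in null mice. Of 9 markers of double negative cells, 7 had a log2 value above 0, 1 lay above all controls (*Notch1*, log2 0.25), and the median was 0.24. Of these markers, *Kit* stood at 0.68 and *Lyl1* at 0.95 with overlapping groups, and a second probe set of *Lyl1* was at -0.91. The first *Lyl1* probe set passed the filter through the null group alone and the second through the controls alone. Their directions were thus built in.

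*Ly6d*, which encodes the ThB antigen of thymocytes and B cells, had the largest difference of all list members, but with a wide spread. Its signals were 3327 and 1966 in *Lck-Cre*, 4838 and 2032 in *Med23flox/flox* and 884 and 327 in null mice (log2 -2.28, SE 0.48, adjusted p = 0.272). Both null values lay below all controls, and the αCD3 arrays of the same mice gave 2525 to 5631 in control and 761 and 351 in null mice. With *Cd52* and *Cd48*, the ligand of CD2 (log2 -0.43), it made up the 3 of 9 measured genes of GPI-anchored antigens that lay below all controls. The list median was -0.04, and the other 6 members had overlapping groups. Of all tested probe sets, 8.72% lay below all controls.

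Of 19 measured actin and LIM domain genes, 14 had a log2 value below 0, 9 lay below all controls and 2 above, with a median of -0.29. The shares over all tested probe sets were 8.72% below and 9.81% above. *Cotl1*, a coactosin that binds F-actin, had signals of 139, 116, 196 and 482 in the controls and 38.5 and 33.5 in null mice (log2 -1.56). It passed the filter through the controls alone, and its difference was -1.04 against *Lck-Cre* and -2.07 against *Med23flox/flox*, where 1 mouse at 482 raised the mean. *Tmsb10* stood at -0.50 with overlapping groups. *Lmo4* and *Lmo1*, LIM-only proteins that bridge transcription complexes, were those above (log2 1.05 and 0.33).

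Surface and signalling molecules of the T-cell receptor gave smaller values. Of 14 genes of the receptor complex and its coreceptors, 5 lay below all controls (*Cd5*, *Cd6*, *Cd2*, *Cd8b1* and *Ptprc*) and 2 above (*Cd4* and *Ctla4*), with a median of -0.17. *Cd2*, an adhesion receptor, stood at 580 to 1107 against 552 and 545 (log2 -0.59), and the CD45 phosphatase gene *Ptprc* at log2 -0.29 on its brightest probe set and 0.05 on another. The inhibitory receptor *Ctla4* stood at 0.32. Of 15 proximal signalling genes, 4 lay below and 2 above. The kinases *Fyn* (-0.38) and *Txk* (-0.36 on its brightest probe set) were among the former, and *Sos1*, an exchange factor of RAS, among the latter (0.44). A dimmer probe set of *Txk* lay above all controls (log2 0.64, with 118 to 179 in control and 281 and 231 in null mice). The median of the 15 genes was -0.07. Counts of both lists stand beside 8.72% below and 9.81% above over all tested probe sets.

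Without stimulus, the MAPK/ERK and immediate early genes did not lie to 1 side. Of 21 measured, 3 had both null arrays below all controls (*Nab2*, *Ier2* and *Zfp36*) and 1 above (*Dusp2*, log2 0.22), and the median was 0.00. For all tested probe sets the shares were 8.72% below and 9.81% above. *Nab2*, a corepressor of EGR proteins, had signals of 294, 306, 263 and 354 in the controls and 133 and 203 in null mice (log2 -0.71). *Ier2* had a log2 difference of -0.56 and *Zfp36*, which encodes an mRNA decay factor, of -0.40. *Egr1*, a zinc finger factor induced through ERK, had signals of 340, 337, 226 and 471 in the controls and 209 and 528 in null mice, so that 1 null mouse lay below all controls and the other above them (log2 0.01, SE 0.37). The sign of that value turned under some scalings, and a dim probe set of *Egr1* lay above all controls (log2 0.93, with 7.4 to 108 in control and 117 and 171 in null mice). That dim probe set passed the filter through the null group alone. *Egr2* stood at 114 and 56.6 in *Lck-Cre*, 255 and 167 in *Med23flox/flox* and 198 and 235 in null mice, a difference of 1.01 against the former and 0.05 against the latter. *Pcyt1a*, of phosphatidylcholine synthesis, was at 0.12 with overlapping groups, and *Il2* lay below the filter. Of 13 measured ETS, SRF and MEF2 factors none lay below all controls, and *Mef2b*, *Elk3* and *Fli1* lay above (log2 0.15, 0.42 and 0.43). *Ets2* stood at -0.50 without separating the groups, and the median of the list was 0.08. *Elk4* and *Elk1* stood at 0.70 and 0.53, also with overlapping groups, and *Elk4* passed the filter through the null group alone.

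**Figure D2:**
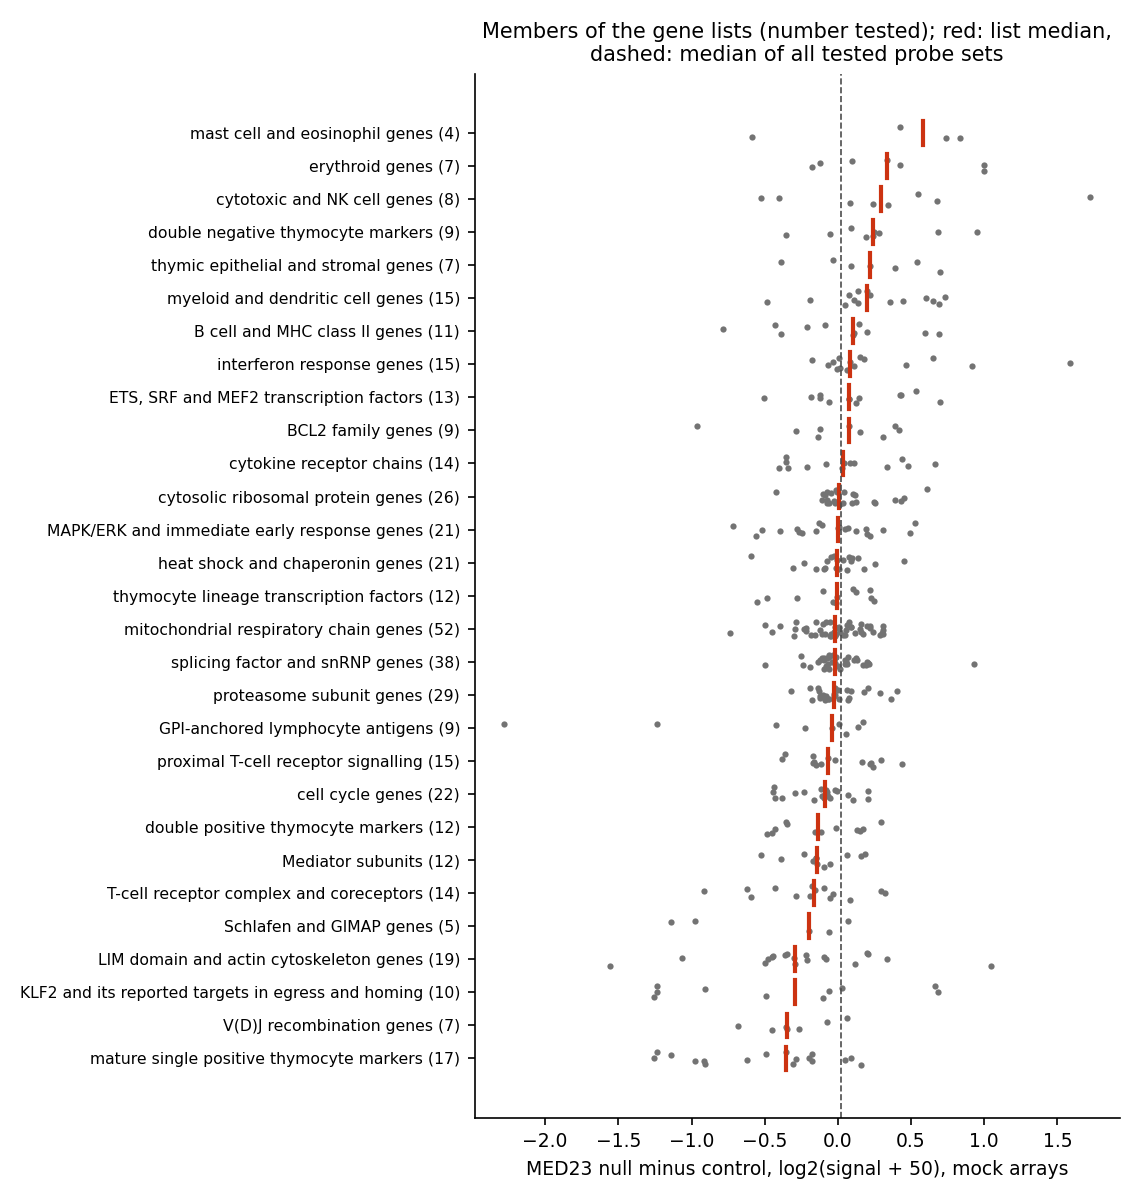
Log2 difference of MED23 null minus control on the mock arrays for every tested member of the 29 gene lists, with 1 grey point per gene, a red bar at the median of each list and a dashed line at the median of all 8579 tested probe sets (0.02). Mature single positive markers have the lowest median (-0.36), while the lists of the ribosome, the respiratory chain, splicing and the proteasome lie within 0.03 of 0.

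Among the 12 genes with signal in both groups that separated best on the higher side, *Gzma* had the largest difference. It encodes granzyme A, a protease of cytotoxic granules. Its signals were 1116 and 1238 in *Lck-Cre*, 1382 and 1018 in *Med23flox/flox*, and 4825 and 3352 in null mice. No control came near the lower null value, and the log2 difference was 1.73 (SE 0.20, adjusted p = 0.125), 1.73 against *Lck-Cre* and 1.72 against *Med23flox/flox*. *Phlda1*, a pleckstrin homology protein induced in activated T cells, had signals of 318, 490, 334 and 395 in the controls and 1019 and 919 in null mice (log2 1.25, SE 0.19, adjusted p = 0.173). *Lmo4* stood at 1025 to 1402 in control and 2684 and 2335 in null mice (log2 1.05, SE 0.17, adjusted p = 0.173). Its difference was 0.94 against *Lck-Cre* and 1.15 against *Med23flox/flox*.

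Metabolic and other genes followed at smaller differences. The acyl-CoA thioesterase *Acot7* was measured at 1253 to 1477 in control and at 2799 and 2072 in null mice (log2 0.83). *Plin2*, a coat protein of lipid droplets, had a log2 difference of 0.62, with 816 to 922 against 1435 and 1350. *Basp1*, a membrane-bound signalling protein, had 1 probe set at 0.75 and a second at 0.57. *Dipk2a* (log2 0.78), *Zcrb1*, a protein of the minor spliceosome (0.79), the predicted gene *Gm8096* (0.86), the GDNF receptor *Gfra1* (1.00) and the complement gene *C1qa* (0.73) were the others with *Hspd1*. The last, a mitochondrial chaperonin, had a dim probe set at 1.15 and a brighter one at 0.45. The differences of these 12 genes ran from 0.62 to 1.73, with adjusted p from 0.125 to 0.296, and all 12 were higher against each control genotype.

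**Figure D3:**
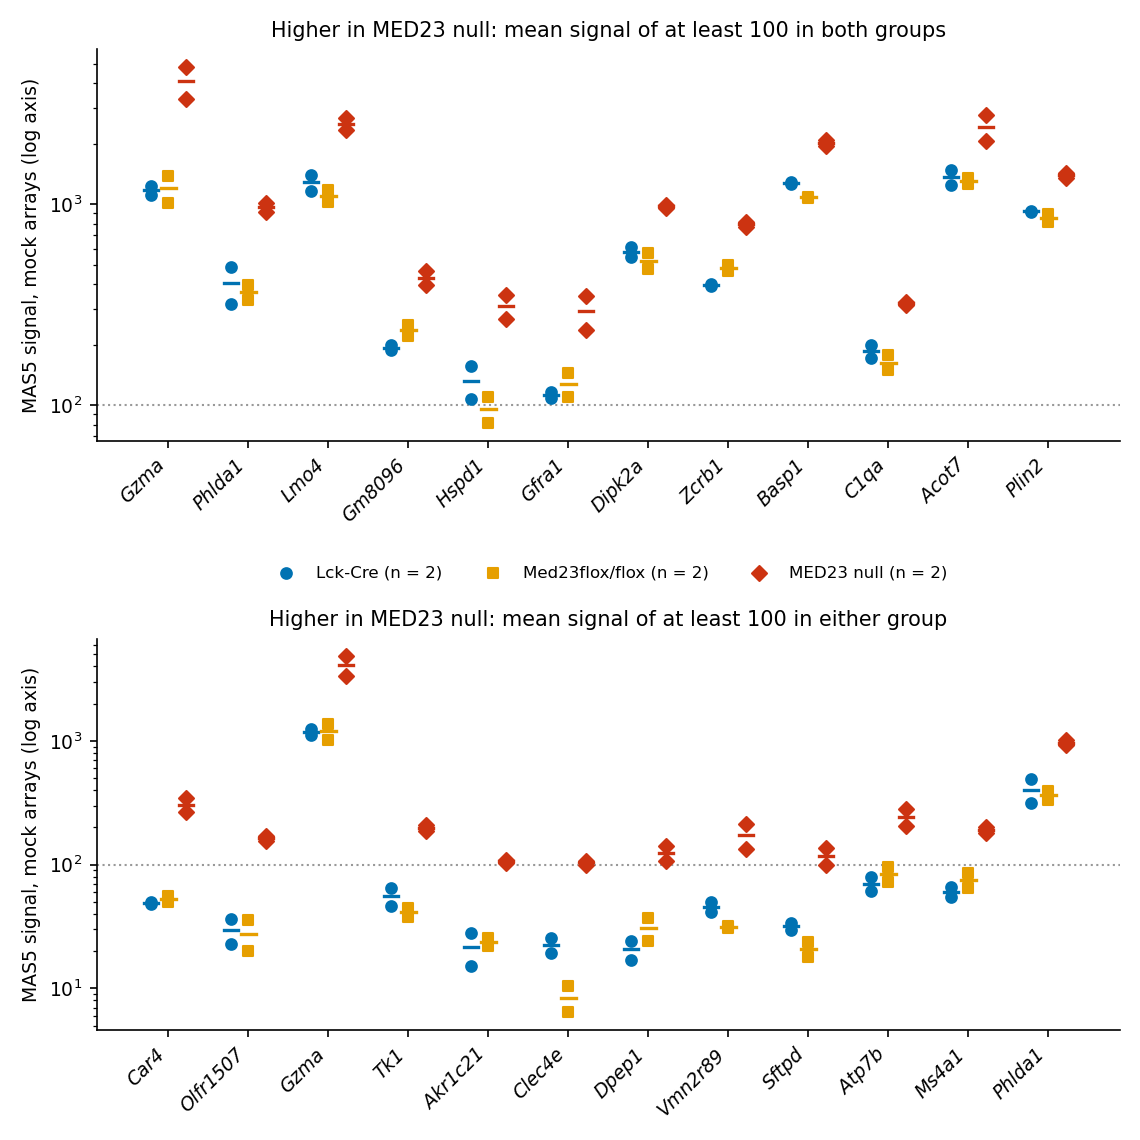
MAS5 signal on a logarithmic axis for the genes higher in MED23 null thymocytes, with 1 point per mouse and a bar at the mean of each genotype; the dotted line marks a signal of 100. In the upper panel, of genes with a mean of at least 100 in both groups, *Gzma* is at 1018 to 1382 in control and at 4825 and 3352 in null mice, and in the lower panel 10 of the 12 genes named from all tested probe sets lie below 100 in the controls.

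The probe sets that separated best of all were mostly dim in the group where they were lower. On the higher side, *Car4*, a membrane-bound carbonic anhydrase, had signals of 49.6, 48.4, 49.9 and 55.8 in the controls and 345 and 265 in null mice (log2 1.80, SE 0.15, adjusted p = 0.0622). Its other, brighter probe set did not show this, with 353 to 535 in control and 387 and 579 in null mice. *Tk1*, the thymidine kinase of S phase, stood at 37.7 to 64.7 against 186 and 209 on 1 probe set (log2 1.34), and at 1055 to 1374 against 1194 and 1418 on a brighter one. *Ms4a1*, which encodes CD20 of B cells, had 2 probe sets, at 1.04 and 0.59. The remaining genes of this rank were *Olfr1507*, *Akr1c21*, *Clec4e*, *Dpep1*, *Vmn2r89*, *Sftpd* and *Atp7b*, with log2 differences of 1.44, 1.11, 1.24, 1.20, 1.32, 1.13 and 1.20. Several are known from other tissues, such as the olfactory receptor *Olfr1507*, the vomeronasal receptor *Vmn2r89* and the lung surfactant protein *Sftpd*. With *Gzma* and *Phlda1* they were the 12 named by rank, of which 10 passed the filter through the null group alone.

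On the lower side, 7 of the 12 named by rank passed the filter through the controls alone. *Arsa*, a lysosomal sulfatase, had signals of 93.2 to 123 in control and 21 and 14 in null mice on 1 probe set (log2 -1.27), whereas a brighter one gave 164 to 365 in control and 268 and 285 in null mice. *Ahnak*, a large scaffold protein, stood at 286, 240, 135 and 262 in the controls and at 52.0 and 40.7 in null mice (log2 -1.51, SE 0.26, adjusted p = 0.187). *Dcx*, doublecortin, had 166 to 175 against 64.1 and 42.7 (log2 -1.10). *Zp1*, a gene of the egg coat, *Prss29* and *Ubxn1* had log2 values of -1.18, -1.32 and -1.10, and brighter probe sets of *Ubxn1* were at -0.10 and -0.44. The others were *S1pr1*, *Cd52*, *Slfn1*, *Cystm1*, *Abcb8* and *Cnn2*, all described above. Adjusted p values of the 12 were 0.125 to 0.21.

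Each control genotype was then set alone against the null mice, with all 3 genotypes in 1 limma fit. Against *Lck-Cre* no probe set had an adjusted p under 0.05 (smallest 0.206), and 298 were lower (3.47%) and 352 higher (4.1%) at an unadjusted p under 0.05. Against *Med23flox/flox* the smallest adjusted p was 0.253, with 274 lower (3.19%) and 396 higher (4.62%). The null arrays lay below both *Lck-Cre* arrays for 18.6% of probe sets and above for 20.4%, and below both *Med23flox/flox* arrays for 18.1% and above for 20%. Between the 2 control genotypes 451 had an unadjusted p under 0.05 and none an adjusted one. A ratio of mean signals over 2, the size used in the study, was met by 186 probe sets lower in null than in pooled control cells (2.17%) and 235 higher (2.74%). Against *Lck-Cre* alone it was met by 231 lower (2.69%) and 363 higher (4.23%), and against *Med23flox/flox* alone by 207 (2.41%) and 369 (4.3%). Of the 186, 114 also met it against each control genotype, 44 only against *Lck-Cre* and 28 only against *Med23flox/flox*. Of the 235, 126 met it against each, 61 only against *Lck-Cre* and 48 only against *Med23flox/flox*. Asking in addition for groups without overlap left 80 lower and 90 higher, and a mean of at least 100 in both groups left 19 and 12. A list of probe sets lower in mock-treated null cells that the study drew up was chosen on these arrays and is no independent evidence of direction. Of the 47 members, 27 had a ratio over 2 against each control genotype, 12 only against *Lck-Cre* and 8 only against *Med23flox/flox*, and in 34 the groups did not overlap. These counts include members below the signal filter. Only 33 of the 47 passed it, 19 with a mean of at least 100 in both groups, and in 26 of the 33 the groups did not overlap.

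**Figure D4:**
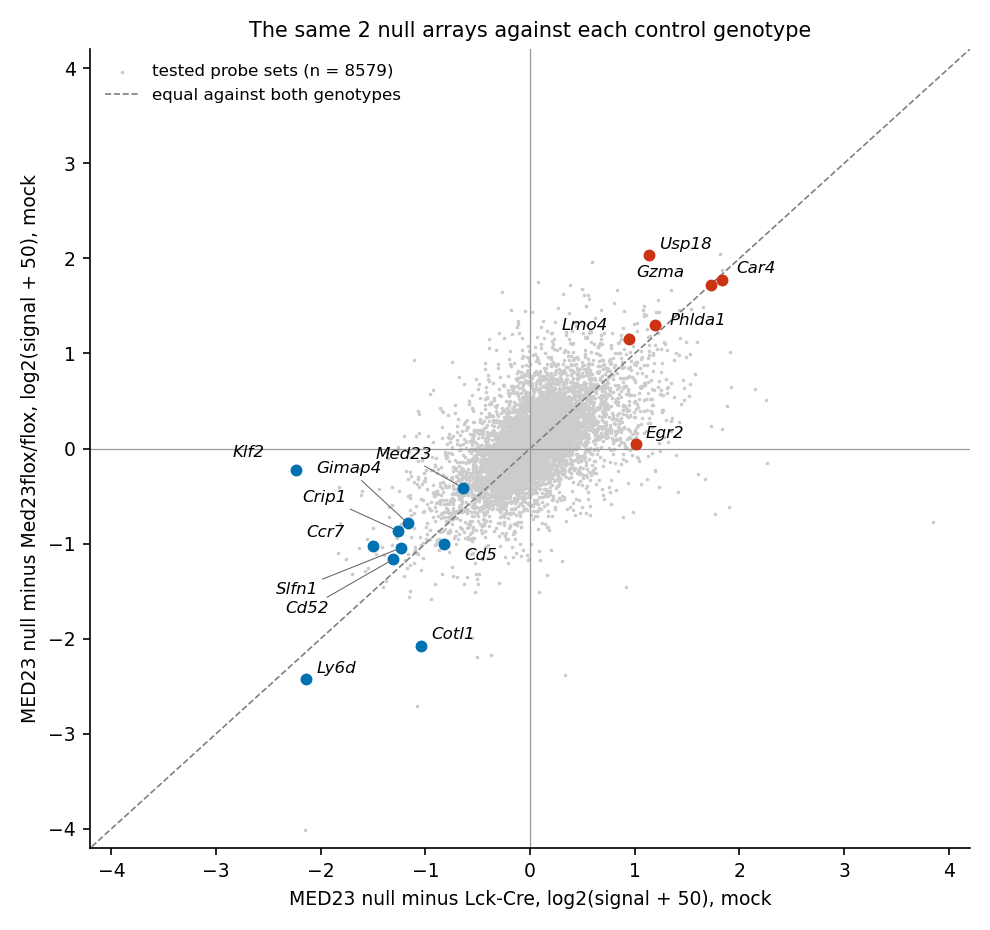
Log2 difference of the 2 null arrays minus the 2 *Lck-Cre* arrays (x axis) and minus the 2 *Med23flox/flox* arrays (y axis) for 8579 tested probe sets in grey, with named genes in blue (lower) and red (higher); the same null arrays enter both axes, so a slope is built in. *Cd52* and *Gzma* lie near the dashed line of equality, while *Klf2* is at -2.24 on the x axis and -0.23 on the y axis, and *Egr2* at 1.01 and 0.05.

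The αCD3 arrays hold the same mice, measured again after 3 h of stimulus, and their values are set beside those of the mock arrays. The actin ratios of 1.9 and 1.61 in null against 1.35 to 1.41 in control mice apply to every αCD3 value below, and their part in these values was not tested. No probe set passed the test of null against control there in limma, where the smallest adjusted p was 0.306, though 546 had a p under 0.05 before adjustment (6.36%). Both null arrays lay below all controls for 730 probe sets (8.51%) and above for 607 (7.08%), or for 8.58% and 7.33% of the probe sets with a mock mean of at least 100 in both groups. Of the 12 lower genes with signal in both groups, 8 were again below all controls on αCD3 arrays and 10 had the same sign. *Cd52* stood at -1.05, *Slfn1* at -0.98, *Crip1* at -0.93, *Ccr7* at -0.84 and *Pfkp* at -0.79 there, whereas *Abcb8* was at 0.66 and *Mrps12* at 0.03. Of the 12 higher genes with signal in both groups, 6 were again above all controls and 10 had the same sign. *Gzma* stood at 1.39, *Phlda1* at 1.33, *Lmo4* at 1.32, *Dipk2a* at 0.84, *Basp1* at 0.81 and *Acot7* at 0.74.

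Genes named by rank from all tested probe sets were looked at in the same way. Of the 12 on the higher side, 3 were above all controls on the αCD3 arrays (*Gzma*, *Phlda1* and *Tk1*) and 4 had the same sign, with *Car4* at 0.00, *Clec4e* at -0.63 and *Sftpd* at -0.89. On the lower side 5 of 12 were below all controls and 8 had the same sign, with *Ahnak* at -1.42 and *Dcx* at -1.02 but *Arsa* at 0.89 and *Zp1* at 0.53. Without the αCD3 array of *Med23flox/flox* replicate 1, 1109 probe sets lay below the remaining controls (12.9%) and 998 above (11.6%). The 12 lower and 12 higher genes with signal in both groups then had 8 each without overlap and 10 each of the same sign, and those named by rank 5 and 3 without overlap and 6 and 5 of the same sign. Over all tested probe sets, 171 lay below all controls on both sets of arrays, 22.9% of the mock and 23.4% of the αCD3 ones. On the higher side the count was 134, 15.9% and 22.1%. Without the array that stood apart these counts were 234 and 189.

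**Figure D5:**
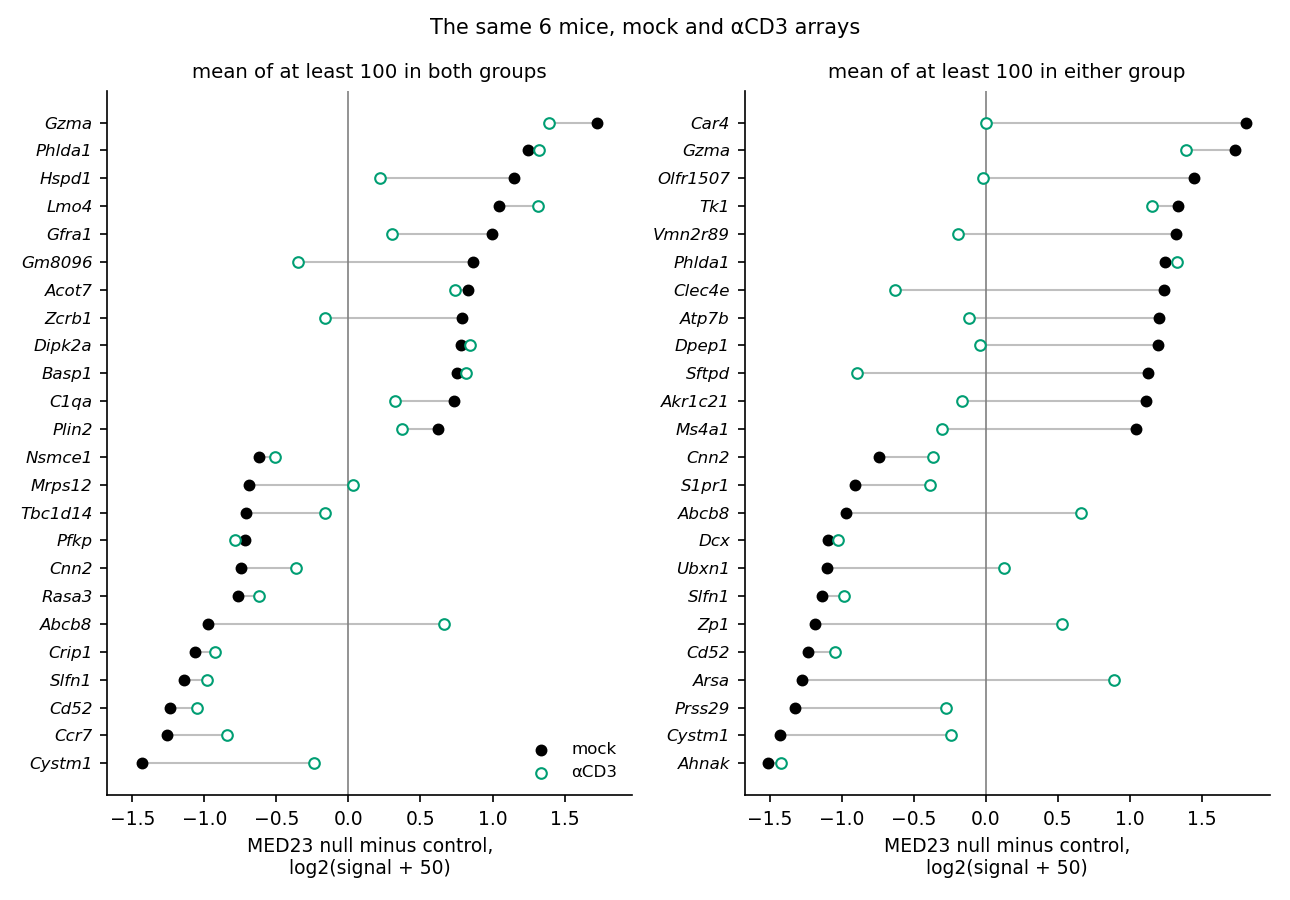
Log2 difference of MED23 null minus control for the genes named in each direction, on mock arrays (black) and on αCD3 arrays of the same 6 mice (open green), for genes with a mean of at least 100 in both groups (left) and for those named from all tested probe sets (right). Genes were chosen on the mock arrays; *Gzma* is at 1.73 and 1.39 and *Cd52* at -1.24 and -1.05, while *Car4* is at 1.80 and 0.00.

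Markers of other cells in a thymus suspension were looked at beside the higher genes. Counts of these markers stand beside 8.72% of all tested probe sets below all controls and 9.81% above. Of 8 measured cytotoxic and NK cell genes, 2 lay above all controls (*Gzma* and *Klra7*, log2 0.68, with another *Klra7* probe set at -0.09) and 1 below (*Gzmb*, log2 -0.52), with a median of 0.29. Their summed signal was 2148 to 2897 in control and 6538 and 4612 in null mice, of which *Gzma* alone made up 4825 and 3352, and *Ncr1*, *Gzmk*, *Ccl5* and *Fcer1g* lay below the filter. *Klra7* passed the filter through the null group alone and *Gzmb* through the controls alone, so their direction was built in. Of 11 B cell and class II genes, 3 lay above all controls (*Ms4a1*, *Blk* and *Ighm*) by the brightest probe set of each, with a median of 0.11 and a summed signal of 8955 to 10008 in control and 11010 and 9673 in null mice. *Ighm* had 8 tested probe sets, at -0.75 to 0.24. Of the 11 genes, 5 had a log2 value below 0. The class II genes *H2-Ob* and *H2-Ab1* were among them, at -0.78 and -0.43 with overlapping groups. Of 15 myeloid genes, 2 lay above (*C1qa* and *Lyz2*, log2 0.65) and 1 below (*Ccr2*, log2 -0.48), with a median of 0.20. Their summed signal was 4575 to 6783 in control and 6939 and 6263 in null mice, and *C1qc* and *S100a9* overlapped between groups.

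Among erythroid genes, *Hba-a1* and *Alas2* set 1 mouse apart. The hemoglobin gene *Hba-a1* had signals of 6037 to 16269 in control and 36041 and 14458 in null mice, and the heme synthesis enzyme *Alas2* 116 to 322 against 988 and 253, with the high value in null replicate 1 each time. *Slc4a1* and the brighter probe set of *Gata1* did not show this, with 255 and 274, and 287 and 335.5, in null mice. No erythroid gene of 7 separated the groups. The summed signal was 9509 to 20886 in control and 40771 and 19078 in null mice, of which *Hba-a1* alone made up 36041 and 14458. Of 4 measured mast cell genes 2 lay above all controls, and these passed the filter through the null group alone. Of 7 epithelial and stromal genes 1 lay above, *Cxcl12*, which also passed the filter through the null group alone. *Foxn1*, *Krt5*, *Krt14* and *Epcam* lay below the filter. The part of these cells in the values above was not tested.

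The remaining lists had medians near that of all probe sets, apart from the Schlafen and GIMAP list at -0.19. Their counts stand beside 8.72% of all tested probe sets below all controls and 9.81% above. In the cell cycle list 4 of 22 genes lay below all controls, *Pcna* (log2 -0.44), *Ccne1* (-0.44) and *Mcm5* (-0.38) among them, and 1 above, with a median of -0.09. Of 15 interferon response genes 2 lay above all controls, *Isg15* (log2 0.91) and *Isg20* (0.65), and none below. *Usp18*, which removes ISG15 from proteins, stood at 1.58 with overlapping groups (137, 21.9, 10.2 and 13.9 in control and 359 and 108 in null mice). Both *Isg20* and *Usp18* passed the filter through the null group alone. Of 9 genes of the BCL2 family 3 lay above all controls, *Bcl2l11*, *Bad* and *Bak1*, which promote cell death (log2 0.42, 0.39 and 0.31), and none below, beside 9.81% and 8.72% of all tested probe sets. A second probe set of *Bad* was at 0.02 with overlapping groups. *Bik* of the same family was at -0.96 with overlapping groups, and it passed the filter through the controls alone. Among 12 lineage transcription factors *Id2*, *Satb1* and *Lef1* lay below all controls (log2 -0.55, -0.48 and -0.28) and *Notch1* above. Among 14 cytokine receptor chains *Ifngr2* lay below (-0.36) and *Ifnar2* above (0.48, and 0.05 on a second probe set). In the Schlafen and GIMAP list, *Slfn1* and *Gimap4* were 2 of 5 below all controls, while their relatives *Slfn2* and *Gimap1* stood at -0.19 and 0.07 with overlapping groups. Chaperones (1 of 21 below, 2 above), proteasome subunits (2 of 29 below, 2 above), ribosomal proteins (none of 26 below, 2 above), the respiratory chain (8 of 52 below, 4 above) and splicing factors (2 of 38 below, 1 above) had medians of -0.0026, -0.03, 0.01, -0.02 and -0.02.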

How the data were processed

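Per the labels, the deposited values are MAS5 signals, intensities on a linear scale that the authors computed for each probe set; no version is given in the sources used here. The signals were used on the scale deposited, with no further scaling between arrays (the mean without the 2% highest and 2% lowest values was 500.3 on every mock array). To each, 50 was added and log2 was taken. Probe sets with a mean of at least 100 in either group were compared in R 4.3.3 with limma 3.58.1 (lmFit, then eBayes), with Benjamini-Hochberg adjustment across 8579 probe sets, in a fit of null against control and in one of 3 genotypes. Tables and figures used Python 3.11.15 with pandas 2.3.3 and matplotlib 3.10.9. Precision is limited by the number of arrays. The fit was tested on simulated data.

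Symbols come from the platform annotation; 10855 probe sets have 1, 396 several and 1237 none. The rule named, per direction, up to 12 probe sets with the largest moderated t among those without overlap (since none passed the threshold), the genes of the study text, and up to 4 members of each of 29 gene lists with the largest difference, each gene by its brightest probe set. The same rank among probe sets with a mean of at least 100 in both groups was added after seeing the data, and further genes were named after their values were seen where a count was small. The members and lists were chosen with earlier results of these data known. Replicates are separate mice.

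Tried as well were quantile normalization and other scalings, further pseudocounts and filters, 1 control genotype alone, a variance trend, the replicate number or the mouse as a block, and each mouse left out.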

Additional observations from a re-analysis of the deposited data

Results flagged for a closer look

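Of 112 probe sets looked at, 4 had 1 control mouse far from the other 3, and chance marks about 1 in 20 groups of 4, so the count is no more than chance gives. For *Arsa*, *Lck-Cre* replicate 2 was at 93.2 against 118 to 123 in the other controls, a gap of 0.857 of their range on the log2(signal + 50) scale. For *Mcm5*, *Lck-Cre* replicate 1 was at 2807 against 2488 to 2512, a gap of 0.918 of the range. For *Usp18*, the same mouse was at 137 against 10.2 to 21.9, a gap of 0.843 of the range. For *Ighm*, the immunoglobulin M heavy chain, *Med23flox/flox* replicate 1 was at 5323 against 5044 to 5068, a gap of 0.911 of the range.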

How the results depend on the processing

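No count at an adjusted p under 0.05 left 0 except in these settings: 1 against all controls with a pseudocount of 16 or a minimum of 200 (*Car4*), 2 with a variance trend (*Cd52* and *Gzma*), 3 against *Lck-Cre* with that trend (*Cd52*, *Gzma* and *Crip1*) and 1 with all 12 arrays and the mouse as a block (*Klf2*). Leaving out 1 mouse gave 0 each time, and at an unadjusted p under 0.05 it gave 174 to 358 probe sets lower than *Lck-Cre*, the lowest without *Lck-Cre* replicate 1. Probe sets without overlap numbered 1650 lower and 1746 higher with *Lck-Cre* as the control, and 1594 and 1716 with *Med23flox/flox*. With 1 mouse left out they were 985 to 1876 lower and 1074 to 2191 higher against all controls, 1616 to 2977 and 1747 to 3260 against *Lck-Cre*, and 1567 to 2980 and 1718 to 3259 against *Med23flox/flox*, since fewer arrays separate more easily. Ratios over 2 depended on the filter. Lower against all controls, *Lck-Cre* and *Med23flox/flox* they were 662, 752 and 685 without a filter, 75, 91 and 85 at a minimum of 200, 43, 69 and 61 with a mean of 100 in both groups, a setting chosen after seeing the data, and 20, 65 and 51 by every array. Higher, they were 621, 943 and 926, then 87, 136 and 141, then 60, 141 and 148, and 22, 99 and 91 in the same order. In a fit with 1 control genotype, 363 were higher than *Lck-Cre* and 367 higher than *Med23flox/flox*. With 1 mouse left out they were 197 to 439, 225 to 453 and 214 to 415 lower, and 264 to 450, 363 to 569 and 367 to 666 higher, the highest counts without null replicate 2 or, higher against 1 genotype, without its replicate 1.

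*Egr1* turned to -0.012 with quantile normalization, -0.042 with scaling to a common median, -0.004 with a 10% trimmed mean and -0.0067 with *Lck-Cre* alone, and ran from -0.57 (without null replicate 2) to 0.59 with 1 mouse left out. *Gimap1* ran from -0.002 (without null replicate 1) to 0.14, and *Pcyt1a* from -0.021 (without null replicate 2) to 0.26, with -0.020 against *Lck-Cre* alone. The cause was not tested.

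With the replicate number as a block, no probe set had an adjusted p under 0.05 in any of the 3 comparisons, and 329 lower and 383 higher than control had an unadjusted p under 0.05 (288 and 364 against *Lck-Cre*, 270 and 425 against *Med23flox/flox*), so that it changed no call. Same-numbered mice did not deviate together (correlations of 0.0465, -0.0170 and 0.0158 between genotypes). Whether they shared a date or handling cannot be told from these values.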
